A study of Mus musculus with 6 samples.

Results

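Integrins and tetraspanins, the membrane proteins with which mast cells attach to matrix and to other cells, were examined as transcripts in mouse mast cells that have or lack the microRNA miR-155. The genes were taken by name. They comprised every array gene with a symbol built on Itga or Itgb (leaving out the Itgb1bp and Itgbl symbols), every Tspan gene with a number, and Cd9, Cd37, Cd53, Cd63, Cd81, Cd82 and Cd151. This gave 54 of the 19938 genes tested, 18 integrin alpha, 10 integrin beta, 19 TSPAN and 7 CD-named tetraspanin symbols. Itgb3bp matched the name pattern but encodes a kinetochore protein and not an integrin subunit, so 27 of the symbols are integrins or integrin-like. The cells came out of C57BL/6J bone marrow, either wild type (WT) or miR-155 knockout (miR-155 KO), kept for 5 weeks in IL-3 at 0.5 ng/ml and SCF at 1 ng/ml. Cultures of both genotypes were loaded overnight with 0.2 µg/ml of IgE against DNP and exposed for 1 h to 20 ng/ml of the antigen DNP-HSA. Each genotype was represented by 3 arrays from 3 independent cultures. All 6 cultures had received antigen, so the response to antigen itself was not measured. The labels do not say whether the cultures of a genotype came from separate mice, and p-values measure the spread between these cultures.

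The knockout cells lack the following mature strands, shown 5′ to 3′ from RefSeq (GRCm38.p6, chromosome 16, plus strand) with the seed, bases 2 to 8, in capitals. The seed is the part of a microRNA that pairs with its targets. The 5p strand lies at chr16:84714143-84714165 and the 3p strand at chr16:84714182-84714202. Matches to these seeds in the members' transcripts were not analysed here.
mmu-miR-155-5p: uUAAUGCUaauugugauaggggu
mmu-miR-155-3p: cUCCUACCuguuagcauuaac

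An integrin is a pair of 1 alpha and 1 beta subunit. It binds matrix proteins or counter-receptors outside the cell and, through talin and kindlins, the actin skeleton inside, and signals from other receptors such as FcεRI raise its affinity. Tetraspanins cross the membrane repeatedly and gather integrins, proteases and immunoglobulin-like partners into membrane domains, and several sit in granule or endosome membranes. In mast cells, integrins that contain beta 7 guide progenitors to mucosal tissue, and CD63 on the cell surface is a common measure of degranulation.

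The deposited values are log2 RMA intensities, in which a difference of 1 is a doubling of signal. A gene is said to have risen or fallen where the p of the limma fit, adjusted over all genes tested, was under 0.05. Brightness depends on the probes as well as on the transcript, so levels of different genes are not ranked here. The 3.70 median of all values on the arrays serves as a guide to weak signal. A member is called dim where both genotype means lay under 4.70, that is less than 1 log2 unit above that median or below it.

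Of 15 mast cell genes 14 were brighter than the dim limit, and Mrgprb1 was dim. Fcer1a, the IgE-binding chain of FcεRI, averaged 12.06 in WT and 12.10 in KO, Kit, the receptor for SCF, 11.89 and 11.82, and Cpa3, a granule protease, 12.78 and 12.97. By limma 0 of the 15 passed, with 4 at an unadjusted p under 0.05. Hdc, Mcpt4 and Srgn were higher in KO without overlap, by 0.84, 0.44 and 0.21. Mitf was lower with overlap, at a difference of -0.29. Over all genes 0.823% passed and 12.7% were at an unadjusted p under 0.05. KO replicate 1 stood apart, at 32.0 on the first principal component against 5.36 and 7.31 for the other KO arrays and -19.5 to -10.6 for WT. Of the marker lists for other cells, 1 of 12 macrophage genes (Cx3cr1) and 1 of 7 megakaryocyte genes (Gp5) fell. By limma 0 of 10 neutrophil, 8 basophil and eosinophil, 10 dendritic cell, 11 lymphocyte and 10 stromal genes passed, with 0, 1, 1, 1 and 0 of them at an unadjusted p under 0.05. Dim markers, which include all 10 neutrophil genes and 5 of the 8 basophil and eosinophil genes, made up 10 of the 12 macrophage, 5 of the 7 megakaryocyte, 9 of the 10 dendritic cell, 11 of the 11 lymphocyte and 8 of the 10 stromal genes. The summed linear intensity of these 5 lists did not overlap between genotypes. It ran from 851 to 981 in WT and from 486 to 674 in KO for macrophage genes, from 247 to 328 and from 210 to 241 for megakaryocyte genes, and from 112 to 118 and from 105 to 107 for dendritic cell genes. It was higher in KO for lymphocyte genes, at 92 to 101 against 103 to 116, and for stromal genes, at 1514 to 1666 against 1742 to 1874. The markers above the dim limit, which weigh most in such sums, were Cx3cr1 and Cd68, Gp5 and Vwf, H2-Ab1, and, in the stromal list, Pecam1 and Col1a1, while every lymphocyte gene was dim. Pecam1, which blood cells also express, averaged 10.55 in WT and 10.74 in KO (adjusted p = 0.417) and was by far the brightest stromal gene. Gp5 differed by -1.11, Vwf by -0.07 and H2-Ab1 by -0.56. The lists did not move as a whole. Differences were negative for 10 of the 12 macrophage, 4 of the 7 megakaryocyte and 5 of the 10 dendritic cell genes. They were positive for 9 of the 11 lymphocyte genes. The dim megakaryocyte gene Treml1 was higher in KO without overlap (0.25). Of the 10 stromal genes 7 had a positive difference. The 3 with a negative difference were the dim genes Lum (-0.15), Pdgfra (-0.21) and Kdr (-0.11). Of the 3 basophil and eosinophil genes above the dim limit, Mcpt8 and Prss34 spread widely between cultures, with WT replicate 2 the lowest WT array. Mcpt8 read 7.56, 5.23 and 7.26 in WT and 5.64, 6.18 and 7.58 in KO. Prss34 read 5.10, 4.11 and 5.61 in WT and 3.99, 4.12 and 4.65 in KO. Cd200r3 lay between 8.32 and 8.57 on all arrays. The part of these other cells in the differences below was not tested. In RNA from whole cultures, fewer cells of a type and less RNA per cell cannot be told apart.

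One gene of the 54, the tetraspanin Cd82, rose in cells without miR-155. No integrin and no numbered TSPAN gene passed the test in either direction. Over all genes tested 0.823% passed, 0.507% higher and 0.316% lower in KO, which is 164 genes, 101 higher and 63 lower (97 and 100 after a repeated quantile normalization). At an unadjusted p under 0.05 stood 11 of the 54 (20.4%), 6 higher and 5 lower, against a background of 12.7%. The KO arrays lay wholly on 1 side of the WT arrays for 12 members (22.2%) against a background of 17.2%. Of these, 6 were above (background 8.18%) and 6 below (background 9.05%). The median difference, KO minus WT, was -0.03 over the 54 and -0.01 over all genes, and 24 members had a positive and 30 a negative difference. Dim members numbered 29, and 25 were brighter. The plot of differences by family shows how narrow most of them are.

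**Figure D1:**
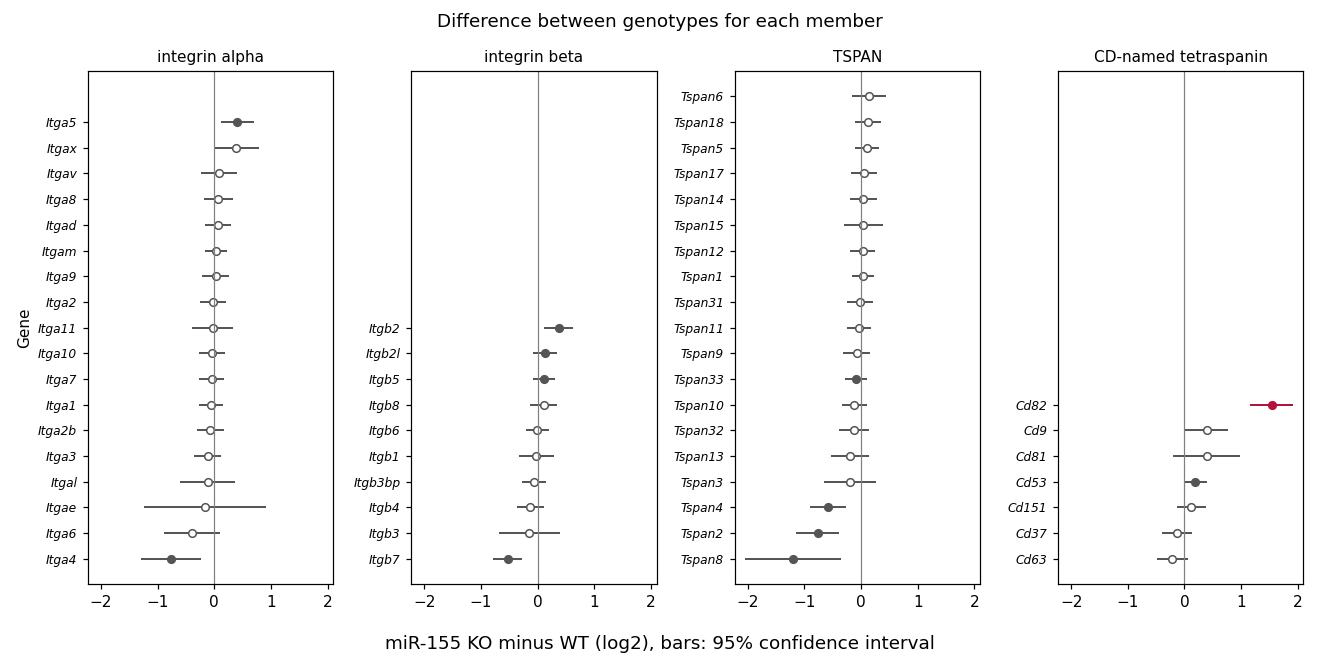
Difference between miR-155 KO and WT (log2 RMA intensity, x axis) for each of the 54 genes (y axis), 1 panel per family, with 95% confidence intervals from the limma fit and filled points where the 3 KO arrays do not overlap the 3 WT arrays. Red marks Cd82 (1.54), the one gene past an adjusted p of 0.05; Tspan8 (-1.20) has the most negative value and Itgae (-0.17) a wide interval around 0.

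Among the CD-named tetraspanins 1 of 7 rose, 0 fell and 6 did not pass, and all 7 were brighter than the dim limit. At an unadjusted p under 0.05 stood 3 of the 7 (42.9%, against 12.7% of all genes), all higher in KO (Cd82, Cd9 and Cd53). Brighter genes had such a p more often. In a fit of only the 9969 genes with a mean above the median gene, 1904 did. Cd82, also known as KAI1, is best known as a suppressor of metastasis that restrains integrin-dependent migration. It read 8.23, 8.06 and 8.02 in the WT cultures and 9.98, 9.28 and 9.66 in the KO cultures. The lowest KO array lay 1 log2 unit or more above every WT array, and KO replicate 1 was the highest. The mean went from 8.10 ± 0.11 to 9.64 ± 0.35 (SD, n = 3), a difference of 1.54 (SE 0.16, 95% confidence interval 1.17 to 1.90), or 2.90-fold, with an adjusted p of 0.00733, which ranked 18th of all genes tested. The difference was 1.37 (adjusted p = 0.00640) without KO replicate 1. Cd82 missed the threshold without WT replicate 1 (adjusted p = 0.0508) or WT replicate 3 (0.0502), when every probe set was tested (0.0853) and in an ordinary pooled-variance test (0.333), within a range of 0.00138 to 0.333.

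The promoter of Cd82 is shown because this gene changed, beside that of Itgb7, the member with the lowest p among those with negative differences. Both are the 250 bases before the first start listed in RefSeq (GRCm38.p6), 5′ to 3′ on the minus strand, Cd82 at chr2:93462951-93463200 and Itgb7 at chr15:102231936-102232185. Capitals mark matches, on either strand, to the motifs searched. The AP-1 motif was searched as TGANTCA and the one read by GATA factors as AGATAA. The GC box was searched as GGGCGG, the motif of EGR factors as GCGTGGG and the M-box of MITF as CATGTG.
Cd82: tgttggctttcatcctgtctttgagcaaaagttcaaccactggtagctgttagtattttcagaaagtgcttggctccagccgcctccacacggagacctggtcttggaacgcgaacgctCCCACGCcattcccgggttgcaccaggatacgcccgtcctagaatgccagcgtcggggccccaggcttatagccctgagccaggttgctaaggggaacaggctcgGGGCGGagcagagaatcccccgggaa
Itgb7: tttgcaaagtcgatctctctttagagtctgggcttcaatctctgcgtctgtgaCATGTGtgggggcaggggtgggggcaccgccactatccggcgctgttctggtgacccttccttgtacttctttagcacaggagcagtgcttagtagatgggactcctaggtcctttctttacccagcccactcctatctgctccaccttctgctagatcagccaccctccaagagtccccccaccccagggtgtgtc
The Cd82 window held 1 EGR and 1 GC box match, which do not overlap, and the Itgb7 window held 1 M-box match. Over all 32851 promoter windows of 250 bases in the table, an EGR match was present in 4.30%, a GC box in 32.7%, an M-box in 12.3%, a GATA match in 9.99% and an AP-1 match in 6.75%. RefSeq lists 4 starts for Cd82, and the EGR letters are before the first of them only. The 45 members with a window had 57 windows, of which 2 held EGR, 22 GC box, 8 M-box, 4 GATA and 2 AP-1 letters (3.51%, 38.6%, 14.0%, 7.02% and 3.51%). A match is a string of letters and was not shown to be bound.

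None of the other CD-named tetraspanins passed. Cd53, a tetraspanin of all leukocytes, read 11.82, 11.85 and 11.96 in WT and 12.10, 12.05 and 12.06 in KO. The groups did not overlap, yet the difference of 0.19 (SE 0.08) did not pass (adjusted p = 0.373). Cd9, which associates with beta 1 integrins, read 10.28, 10.72 and 10.45 in WT and 11.21, 10.69 and 10.72 in KO. These overlapped, with KO replicate 1 above the rest, and the difference of 0.39 (SE 0.16, adjusted p = 0.354) was 0.22 without that array. Cd81, a widely expressed tetraspanin, read 6.70, 5.78 and 6.53 in WT and 7.12, 6.72 and 6.34 in KO. It spread widely in both genotypes (difference 0.39, SE 0.26, 95% confidence interval -0.19 to 0.97, adjusted p = 0.621). Cd63, the granule and lysosome tetraspanin, read 8.77, 8.81 and 8.70 in WT and 8.72, 8.58 and 8.32 in KO. Its groups overlapped at a difference of -0.22 (SE 0.11, adjusted p = 0.487). Cd37, a leukocyte tetraspanin, read at least 8.76 on every WT array and 8.84, 8.82 and 8.56 in KO (difference -0.14, SE 0.11, adjusted p = 0.694). Cd151, which holds laminin-binding integrins in place, read 7.86, 7.96 and 7.99 in WT and 8.25, 7.97 and 7.97 in KO (difference 0.12, SE 0.10, adjusted p = 0.716). For both genes the groups overlapped.

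**Figure D2:**
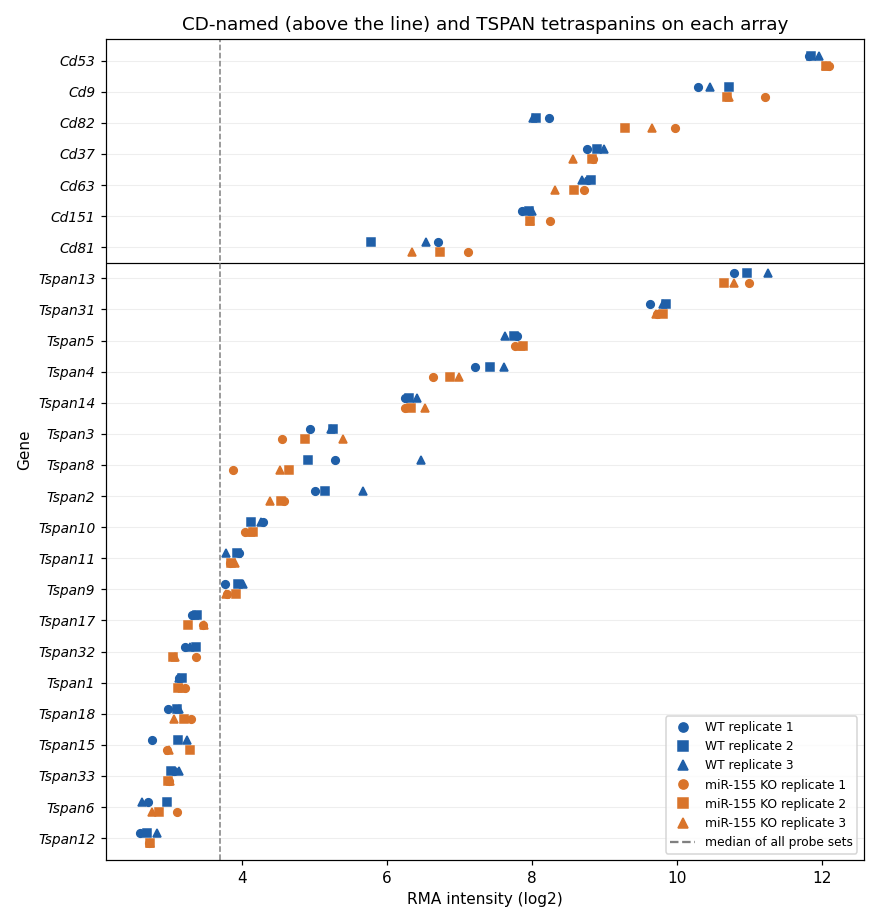
RMA intensity (log2, x axis) of the 26 tetraspanin genes (y axis) on each of the 6 arrays, WT in blue and miR-155 KO in orange, with the median of all probe sets dashed; brightness is not comparable between genes. Cd82 is the row with the clearest gap between colours, from 8.02 to 8.23 in WT and from 9.28 to 9.98 in KO, and 11 TSPAN rows lie near the median in both genotypes.

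Of the 19 TSPAN genes 0 passed by limma. The ordinary pooled-variance test passed 0 of all genes tested, so its 0 for this family is not informative. By limma 3 had an unadjusted p under 0.05 (15.8%, against 12.7% of all genes), all lower in KO. The 3 were Tspan2, Tspan4 and Tspan8, and none was dim. Tspan2, known from oligodendrocytes and neutrophils, read 5.00, 5.14 and 5.66 in WT and 4.58, 4.54 and 4.38 in KO. All KO arrays were below all WT arrays, at a difference of -0.77 (SE 0.16, adjusted p = 0.0747, 0.0555 to 0.410 over the alternatives). Tspan4, a marker of the retraction vesicles called migrasomes, read 7.21, 7.42 and 7.61 in WT and 6.64, 6.87 and 6.99 in KO. Its groups did not overlap either (difference -0.58, SE 0.13, adjusted p = 0.0861). Tspan8, studied mostly in epithelial tumours, had the most negative difference of the 54, -1.20 (SE 0.37, adjusted p = 0.190), and the widest spread of these 3. It read 5.28, 4.91 and 6.47 in WT and 3.88, 4.65 and 4.52 in KO. WT replicate 3 was far above the other WT arrays and KO replicate 1 below the other KO arrays. Over the fits that left out 1 array its difference ran from -1.53 to -0.75, and it was -0.97 without KO replicate 1.

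The remaining TSPAN genes lay between -0.20 and 0.14. Tspan33, a partner of the protease ADAM10, was the only one of these 16 with separate groups, at a difference of -0.08 between dim values (adjusted p = 0.758). Tspan13 read 10.78, 10.96 and 11.26 in WT and 10.99, 10.64 and 10.78 in KO, which overlapped (difference -0.20, SE 0.14, adjusted p = 0.655). Tspan31 averaged 9.76 ± 0.12 and 9.75 ± 0.05, and Tspan3 5.13 ± 0.17 and 4.94 ± 0.43 (SD, n = 3). The TspanC8 genes escort ADAM10 to the surface. Of these Tspan5 differed by 0.11, Tspan14 by 0.04, Tspan15 by 0.04, Tspan17 by 0.05 and Tspan10 by -0.12, and Tspan10, Tspan15, Tspan17 and Tspan33 were dim. Tspan32, a tetraspanin of blood cells, was dim as well, at 3.21, 3.36 and 3.28 in WT and 3.37, 3.05 and 3.07 in KO (difference -0.12, SE 0.11, adjusted p = 0.730). The other dim genes were Tspan1, Tspan6, Tspan9, Tspan11, Tspan12 and Tspan18.

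Of the 10 integrin beta symbols 0 passed by limma or in an ordinary pooled-variance test, which passed 0 of all genes tested. By limma 2 had an unadjusted p under 0.05 (20%, against 12.7% of all genes), Itgb7 lower and Itgb2 higher in KO. Itgb7, the mucosal homing subunit that pairs with alpha 4 and alpha E, read 9.04, 9.02 and 9.31 in WT and 8.49, 8.66 and 8.64 in KO. Every KO array was below every WT array, and both groups were tight. The mean went from 9.12 ± 0.16 to 8.59 ± 0.09, a difference of -0.53 (SE 0.10, 95% confidence interval -0.77 to -0.29, adjusted p = 0.0625). Itgb7 passed after a repeated quantile normalization (-0.57, adjusted p = 0.0390) and with trend and robust priors (0.0369), within a range of 0.0369 to 0.355. Itgb2, the CD18 subunit of leukocyte integrins, read between 6.70 and 6.75 in WT and between 6.97 and 7.31 in KO. All KO arrays were higher, replicate 1 most, at a difference of 0.37 (SE 0.11, adjusted p = 0.164), or 0.26 without KO replicate 1.

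Itgb1, the partner of most matrix-binding alpha subunits, read 8.41, 8.64 and 8.85 in WT and 8.72, 8.46 and 8.66 in KO. The groups overlapped almost wholly (difference -0.02, SE 0.13, adjusted p = 0.972). Itgb3, which pairs with alpha IIb and alpha V, read 7.16, 6.76 and 6.96 in WT and 6.58, 6.45 and 7.39 in KO. KO replicate 3 was above every WT array and the other KO arrays below, and the difference was -0.15 (SE 0.23, adjusted p = 0.873). The other 6 symbols, Itgb2l, Itgb4, Itgb5, Itgb6, Itgb8 and Itgb3bp, were dim, and their differences lay between -0.13 and 0.14. Among them Itgb2l (0.14) and Itgb5 (0.11) had separate groups without passing (adjusted p = 0.601 and 0.647).

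**Figure D3:**
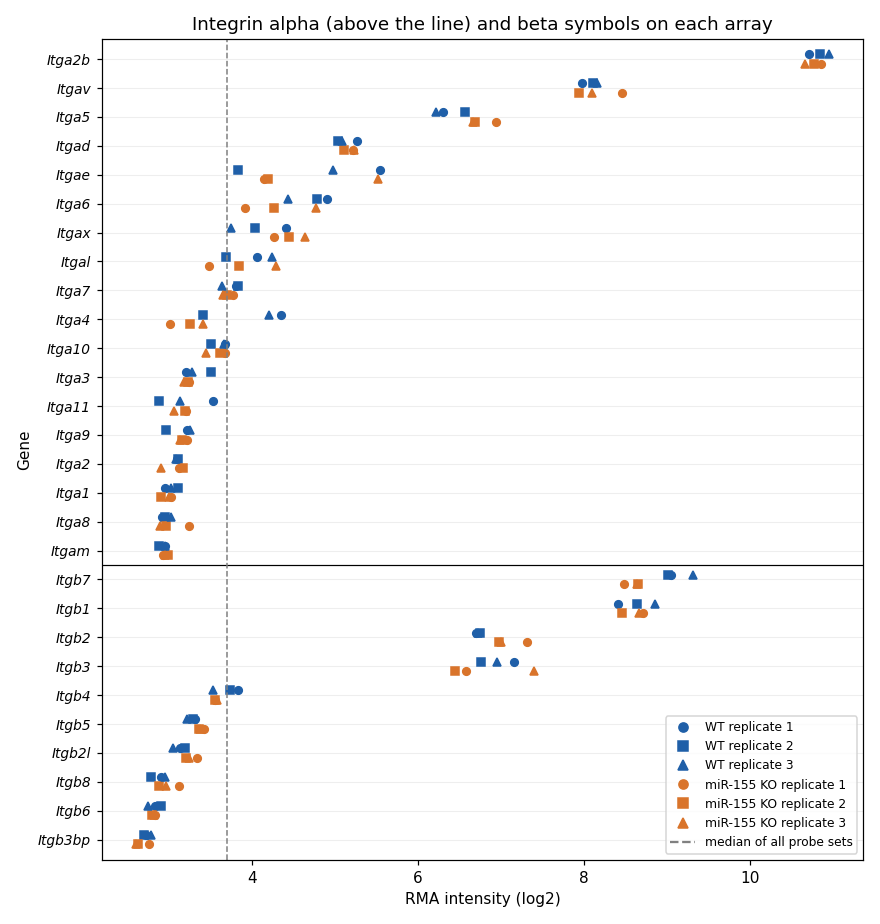
RMA intensity (log2, x axis) of the 28 integrin symbols (y axis) on each of the 6 arrays, alpha above and beta below the line, WT in blue and miR-155 KO in orange, with the median of all probe sets dashed; brightness is not comparable between genes. Itgb7 is separated between 8.66 and 9.02, Itgae spans 3.84 to 5.55, and 18 rows lie near the median in both genotypes.

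Of the 18 integrin alpha genes 0 passed by limma or in an ordinary pooled-variance test, which passed 0 of all genes tested. By limma 3 had an unadjusted p under 0.05 (16.7%, against 12.7% of all genes), 2 higher (Itga5 and Itgax) and 1 lower (Itga4). Itga5, which forms the fibronectin receptor with beta 1, read 6.30, 6.56 and 6.21 in WT and 6.94, 6.69 and 6.67 in KO. All KO arrays were higher, at a difference of 0.41 (SE 0.12, adjusted p = 0.177), or 0.32 without KO replicate 1. Itga4, which pairs with beta 1 or beta 7 and binds VCAM-1, fibronectin or MAdCAM-1, read 4.36, 3.41 and 4.20 in WT and 3.01, 3.26 and 3.41 in KO. WT replicate 2 was at the level of KO replicate 3, and the other WT arrays were higher. All of these values are dim, and the difference was -0.76 (SE 0.23, adjusted p = 0.180). Itga4 passed when WT replicate 2 was left out (-1.05, adjusted p = 0.0391). That array was also the lowest WT array for Itgae and for the basophil and eosinophil markers Mcpt8 and Prss34. A link between these genes was not tested. Itgax, the CD11c subunit, was dim too, at 4.41, 4.04 and 3.75 in WT and 4.27, 4.45 and 4.65 in KO. These groups overlapped (difference 0.39, SE 0.17, adjusted p = 0.382).

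Itga2b, the alpha IIb chain of megakaryocytes and early mast cells, read 10.72, 10.84 and 10.95 in WT and 10.86, 10.77 and 10.66 in KO. All 6 values lay close together (difference -0.07, SE 0.10, adjusted p = 0.851). Itgav, which binds vitronectin with beta 3, read 7.98, 8.11 and 8.16 in WT and 8.46, 7.94 and 8.10 in KO, with KO replicate 1 the highest (difference 0.08, SE 0.13, adjusted p = 0.885). Itgae, the alpha E subunit of intraepithelial mast cells and T cells, varied more between cultures than between genotypes, reading 5.55, 3.84 and 4.97 in WT and 4.14, 4.20 and 5.52 in KO (difference -0.17, SE 0.46, adjusted p = 0.944). Itga6, a laminin receptor subunit, read 4.90, 4.79 and 4.44 in WT and 3.91, 4.26 and 4.77 in KO. KO replicate 3 was within the WT range, and the difference was -0.39 (SE 0.21, adjusted p = 0.505), or -0.19 without KO replicate 1. Itgad had probe sets at 5.13 and 3.34 in WT, with differences of 0.06 and -0.01. Itgal, the alpha L subunit of LFA-1, was dim, at 4.06, 3.69 and 4.24 in WT and 3.49, 3.85 and 4.29 in KO (difference -0.12, SE 0.21, adjusted p = 0.893). Itgam, the alpha M subunit, lay between 2.88 and 2.99 on all arrays (difference 0.03, SE 0.08, adjusted p = 0.947). Itga2, a collagen receptor subunit, lay between 2.91 and 3.17 (difference -0.03, SE 0.09, adjusted p = 0.954), and KO replicate 3 was the lowest. The dim genes further included Itga1, Itga3, Itga7, Itga8, Itga9, Itga10 and Itga11, with differences between -0.11 and 0.07.

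Read as pairs, subunits that form 1 receptor did not always lie on the same side of WT. For alpha 4 beta 7 both differences were negative (-0.76 and -0.53), and for alpha X beta 2 both were positive (0.39 and 0.37). For alpha 5 beta 1 the alpha chain differed by 0.41 and the beta chain by -0.02, and for alpha IIb beta 3 the differences were -0.07 and -0.15. Alpha 4 also pairs with beta 1, where the differences were -0.76 and -0.02. Opposite signs were seen for alpha L beta 2 (-0.12 and 0.37) and alpha V beta 3 (0.08 and -0.15), and like signs for alpha E beta 7 (-0.17 and -0.53) and alpha M beta 2 (0.03 and 0.37). None of these subunits passed, and likeness within pairs was not tested. Itga4, Itgal, Itgam and Itgax were dim. The differences of Itgae, Itgal, Itgav, Itgb1 and Itgb3 changed sign in some fit without 1 array.

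**Figure D4:**
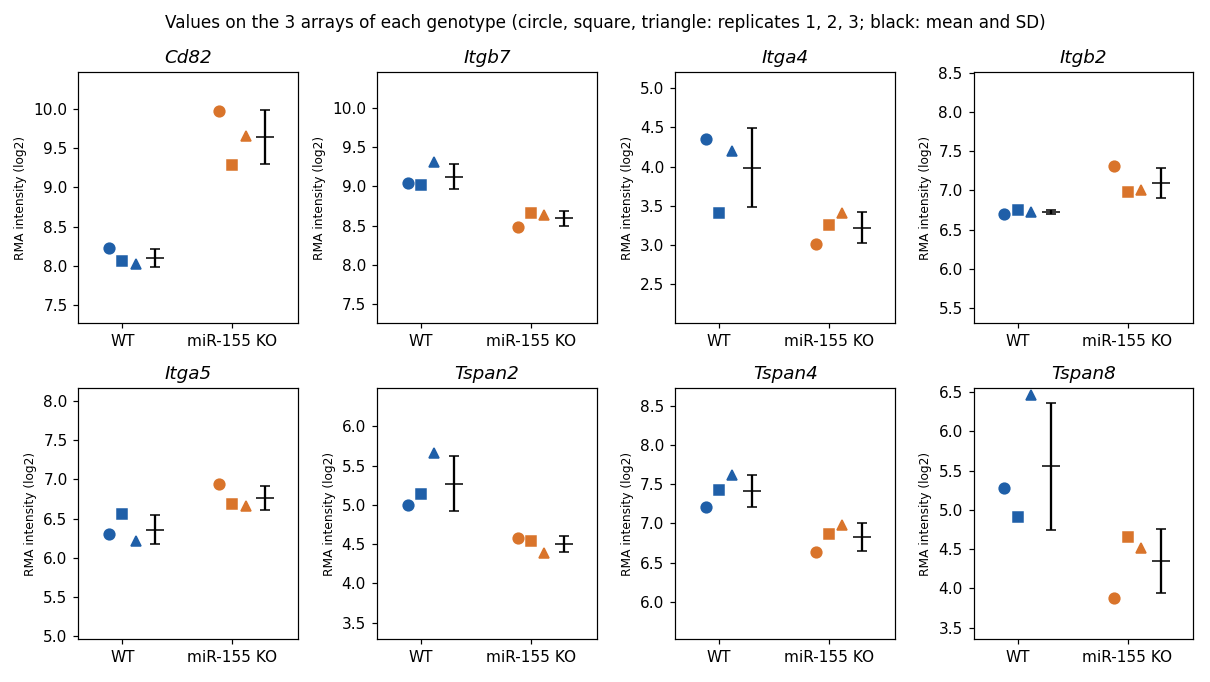
RMA intensity (log2, y axis, each panel spanning the same range) on the 3 arrays of each genotype for 8 members, with means and SD in black; marker shapes give replicates 1, 2 and 3. The KO arrays of Cd82 (9.28 to 9.98) lie above WT (8.02 to 8.23), and those of Itgb2 and Itga5 lie above by smaller steps. Those of Itgb7, Tspan2, Tspan4 and Tspan8 lie below. For Itga4 they also lie below, but KO replicate 3 and WT replicate 2 both read 3.41. Only Cd82 passed.

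Several members are neighbours in the genome. All 54 matched the RefSeq gene table by Entrez ID, and 9 pairs lay with at most 2 protein-coding genes between them. Cd82 (1.54) has the dim gene Tspan18 (0.12) next to it on chromosome 2. On chromosome 7 Cd81 (0.39) adjoins Tspan32 (-0.12), and Cd151 (0.12) lies 1 gene from Tspan4 (-0.58). Itgax (0.39) sits between Itgam (0.03) and Itgad (0.06) on the same chromosome. The other pairs were Itga1 with Itga2 (-0.06 and -0.03), Tspan9 with Tspan11 (-0.08 and -0.03), and Cd63 with Itga7 (-0.22 and -0.05). Likeness between neighbours was not tested.

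Among the genes whose proteins work with tetraspanins, the adhesion receptor gene Ceacam1 rose and Igsf8 fell. Of 43 measured genes on the partner list 1 rose, 1 fell and 41 did not pass, where 0.823% of all genes passed. The list was chosen with earlier results of these data known, so its share cannot be read as enrichment. It also holds Upk1a, Upk1b, Prph2 and Rom1, which are tetraspanin relatives under other names and not partners. Ceacam1, whose protein has inhibitory signalling motifs, read 5.11, 5.81 and 5.57 in WT and 7.89, 7.29 and 7.40 in KO. The groups were far apart, at a difference of 2.03 (SE 0.20, 4.09-fold, adjusted p = 0.00576), and it passed in all 6 fits that left out 1 array. Over every probe set (0.0840) and in the ordinary test (0.333) it did not pass. Igsf8, an immunoglobulin protein bound by CD9, CD81 and CD82, read 5.30, 5.60 and 5.21 in WT and 4.63, 4.80 and 4.59 in KO. It was 1.62-fold lower in KO (difference -0.70, SE 0.12, adjusted p = 0.0409). Igsf8 did not pass when any of the 6 arrays was left out (0.0538 to 0.126), over every probe set (0.170) or in the ordinary test (0.354). Lrp5 and Fzd4, Wnt pathway receptors tied to TSPAN12, differed by -0.42 (adjusted p = 0.0815) and -0.73 (adjusted p = 0.0849) and did not pass. The median difference of the partner list was -0.02.

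Genes of integrin activation and adhesion did not pass. Of 59 measured, 0 passed by limma or the ordinary test, which passed 0 of all genes tested. The median difference was -0.03. By limma 11 of the 59 had an unadjusted p under 0.05 (2 higher, 9 lower), where 12.7% of all genes did. In a fit of only the 9969 genes with a mean above the median gene, 1904 did. Of the 59, 46 were brighter than the dim limit. The 4 with the lowest p were Parvb, an actin linker (-0.57, adjusted p = 0.0625), Arap3, a GTPase-activating protein (-0.56, 0.0653), Crkl, an adaptor (-0.37, 0.0830), and Apbb1ip, the RIAM protein that brings talin to integrins (0.41, 0.0861). Tln1, talin, averaged 9.76 and 9.55 (adjusted p = 0.475), and Fermt3, the kindlin of blood cells, 9.78 and 9.76 (adjusted p = 0.961). Both were named for their roles after their values were seen. Parvb passed with array weights (-0.62, adjusted p = 0.0402).

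Of 36 measured integrin ligands 0 passed by limma or the ordinary test, which passed 0 of all genes tested. The median difference was -0.02. By limma 4 of the 36 had an unadjusted p under 0.05 (2 higher, 2 lower), where 12.7% of all genes did. Lama5, a laminin chain, had the lowest p, at 7.11 in WT and 7.83 in KO (difference 0.72, SE 0.15, adjusted p = 0.0723), and passed with trend and robust priors (0.0438). Tgfb1, whose latent form binds alpha V integrins, differed by 0.30 (adjusted p = 0.255), Icam4, a red cell ligand, by -0.25 (adjusted p = 0.284) and the dim Cdh1, E-cadherin and the ligand of alpha E beta 7, by -0.27 (adjusted p = 0.316).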

How the data were processed

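RNA from 6 mast cell cultures, 3 per genotype, was measured on the Mouse Gene 1.0 ST array of Affymetrix. Per the submitters' processing notes, the authors summarised probes by RMA, and the deposited values are its log2 intensities. The RMA version and the annotation build are not given in the sources used here. The method normalizes between arrays, and nothing further was applied. The labels give no batch. Of 35557 probe sets, 21789 had 1 symbol in the platform annotation, 1621 had several and 12147 were unlisted. The brightest probe set on average stood for each gene, which left 19938 genes.

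Genotype was fitted per gene over all 6 arrays (limma 3.58.1, R 4.3.3, lmFit and eBayes, two-sided), and p was adjusted by Benjamini-Hochberg over all genes. Residual degrees of freedom were 4, and the prior added 4.68. Differences are KO minus WT. The number of arrays limits the precision, and an exact permutation test of 3 against 3 cannot go below 0.1. The fit was tested on simulated data. Members, lists and tests were chosen with earlier results of these data known. Given in full are members past 0.05, the 4 with the lowest p per family, a set list of leukocyte integrins and tetraspanins, and, from each pathway list, genes past 0.05 and the 4 with the lowest p. Other genes with values, the dim limit, the motifs and the displayed promoters were chosen after values were seen. Alternatives covered the replicate block, scaling (median centring, a repeated quantile step) and the genes tested (bright genes only, every probe set, averaged rows). They also covered the variance model (array weights, priors with trend and robustness, an ordinary pooled variance) and the fit without each array. The filter on dim genes kept the 9969 genes whose mean exceeded the median of gene means. This is not the dim limit used above, and 28 members were kept, among them the dim Itgax.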

Additional observations from a re-analysis of the deposited data

How the results depend on the processing

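Among the 54 members 1 passed, and Cd82 was that gene in the fits with median centring, the filter on dim genes, array weights and averaged rows. The count was 2 with a replicate block (Cd82 and Tspan4), 2 with repeated quantile normalization and 2 with trend and robust priors (Cd82 and Itgb7 in both), and 0 over every probe set and in the ordinary pooled-variance test. It ran from 0 to 2 over the fits without 1 array, 0 without WT replicate 1 or 3. By family, CD-named tetraspanins gave 0 over every probe set and in the ordinary test and 0 to 1 without 1 array. Integrin beta gave 1 with repeated quantile normalization and 1 with trend and robust priors. TSPAN gave 1 with the replicate block, and integrin alpha 0 to 1 without 1 array. Of all genes tested, 164 passed, against 4 over every probe set, 0 in the ordinary test (1986 at an unadjusted p under 0.05) and 15 to 167 without 1 array. The count was 15 without WT replicate 1, 43 without replicate 2 and 27 without replicate 3 of that genotype. Leaving out KO replicate 1 gave 103 genes, and leaving out KO replicate 3 gave 74.

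In the pathway lists, the adhesion machinery gave 1 with the replicate block and 1 with array weights (Parvb in both), the ligands 1 with the replicate block and 1 with trend and robust priors (Lama5 in both), and the tetraspanin partners 0 over every probe set, 0 in the ordinary test and 1 without 1 array in each of the 6 fits (Ceacam1).

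The replicate numbers were not shown to pair the cultures, and so few cultures cannot exclude a pairing. Deviations from the group means correlated at -0.0142, -0.0605 and 0.237 for numbers 1, 2 and 3, and at -0.246 to 0.235 between unlike numbers. With the replicate block 199 genes passed in all, Tspan4 was at an adjusted p of 0.0370, Fzd4 at 0.0312, and Cd82 at 0.00879.

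Of the 40 genes given in full, 6 changed sign in some fit without 1 array, none of them past the threshold in any fit. Their differences ran from -0.082 to 0.049 for Itga2, from -0.64 to 0.21 for Itgae, from -0.33 to 0.073 for Itgal, from -0.065 to 0.19 for Itgav, from -0.13 to 0.085 for Itgb1 and from -0.44 to 0.028 for Itgb3. For the 29 dim members the signal over background limits what could be seen.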

Other observations

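Values outside the comparison came from probe sets and relatives that the naming rule left out. An additional 3 probe sets carried the symbols of both Itgam and the ribosomal protein gene Rpl35. They averaged 9.64 to 9.89 in WT and 9.97 to 10.15 in KO, while the probe set of Itgam alone read 2.93 and 2.96. Which transcript these shared probe sets measured was not tested. Itgb1bp1, a regulator that binds the beta 1 tail, differed by 0.14 (SE 0.10, adjusted p = 0.652). Itgb1bp2 (0.13) and Itgbl1 (-0.12) were dim. Of the tetraspanin relatives under other names, Upk1a, Upk1b, Prph2 and Rom1 were dim, with differences of 0.05, -0.30, -0.08 and -0.09, and only Upk1b and Itgbl1 had KO arrays all below WT.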
